A study of Mus musculus with 6 samples.

Results

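The platelet-derived growth factor (PDGF) ligands and receptors were examined in fibroblasts of mouse mammary tumors. They comprise 4 ligand genes (Pdgfa, Pdgfb, Pdgfc and Pdgfd) and 3 receptor-family genes (Pdgfra, Pdgfrb and Pdgfrl). They were taken by symbol from the 27179 genes of the count table, and all 7 were found and passed the filter on low counts. Cancer-associated fibroblasts (CAFs) came from 3 tumors of female raGFP-Wnt1 mice, and each tumor gave a CD34 negative and a CD34 positive library, so n = 3 per group. Every mouse, in both groups, carried a Wnt1 transgene under the MMTV promoter, which is active in mammary epithelium, and a heterozygous knock-in of histone H2B-GFP at the Pdgfra locus. Cells of both groups were Lin- (without the endothelial, leukocyte and red cell markers CD31, CD45 and TER-119) and GFP-positive, so both were sorted for activity of the Pdgfra locus before they were divided by the surface protein CD34. Fibroblasts that do not use this locus were therefore outside the sort, counts do not separate the reporter allele from the normal one, and mouse age was not given in the sources used here.

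PDGF ligands act as dimers. PDGF-A and PDGF-B are secreted in active form, whereas PDGF-C and PDGF-D carry a CUB domain that proteases must remove first. The dimers bind the receptor tyrosine kinases PDGFR-alpha and PDGFR-beta, which mark and drive fibroblasts and pericytes respectively and signal to growth, migration and matrix deposition. Pdgfrl encodes a receptor-like protein without a kinase domain, so it is a relative by sequence and not a signalling receptor.

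In CD34 negative CAFs, Pdgfrb averaged 1.87 times and Pdgfrl 2.19 times the level of CD34 positive CAFs, while Pdgfc averaged 2.98 times higher in CD34 positive CAFs. Pdgfra and Pdgfd were close in both groups. Pdgfa and Pdgfb had higher means in CD34 negative CAFs, but neither difference passed the adjusted tests below in any fit, and the error was widest for Pdgfb. Without a term for the tumor, 0 of 7 genes were called by limma-voom, that is, none had a Benjamini-Hochberg adjusted p under 0.05. Over the 14855 genes tested 0.121% were called, 0.0202% as higher and 0.101% as lower in CD34 negative CAFs. Before adjustment, 4 of the 7 (Pdgfb, Pdgfc, Pdgfrb and Pdgfrl) had a p under 0.05, against 14.3% of all genes. edgeR without the tumor also called 0 of 7, and over all genes tested it called 0 higher and 9 lower. DESeq2 without the tumor called Pdgfrb higher and Pdgfc lower, and over all genes tested it called 313 higher and 385 lower. When the tumor was entered as a block, which compares the fractions within each tumor, Pdgfrb and Pdgfrl were called higher and Pdgfc lower in CD34 negative CAFs, and 4 genes were not called. With the block, 4.32% of all genes were called higher and 4.25% lower. The sign was the same in 3 of 3 tumors for 6 of the 7 genes, against 46.3% of all genes tested, and Pdgfd was the exception. The median log2 fold change of all genes tested was -0.03. In bulk libraries, fewer cells that express a gene and less of its RNA per cell cannot be told apart.

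**Figure D1:**
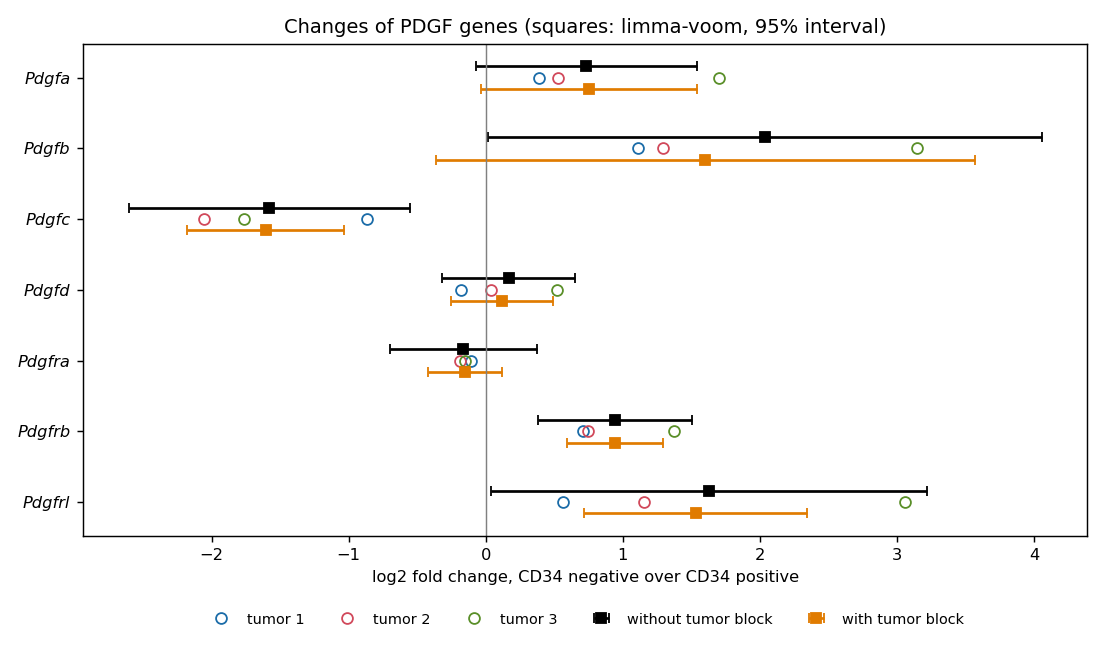
Log2 fold change of each PDGF gene, CD34 negative over CD34 positive (horizontal axis), with circles for the 3 tumors and squares with 95% intervals for limma-voom without and with the tumor as a block. The intervals of Pdgfrb and Pdgfrl lie above 0 and those of Pdgfc below 0 in both fits. Both intervals of Pdgfa, of Pdgfra and of Pdgfd cross 0, and that of Pdgfb crosses it only with the block.

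Libraries held between 16238059 and 86609267 counts, and each is named by its fraction and tumor number, as in negative library 1. The sorted marker Cd34 went with the labels, at 42.0 to 102 CPM (counts scaled by library total and TMM factor) in the negative and 563 to 1605 CPM in the positive libraries. The fibroblast marker Col1a1, a fibrillar collagen gene, was at no less than 11718 CPM in every library, which alone does not settle cell identity. Negative library 3 stood apart: it had counts for the fewest genes (14314, against up to 19220), and 159 genes that averaged at least 2 CPM elsewhere had no count in it. Without it, the log2 fold changes were 0.97 for Pdgfrb, 1.72 for Pdgfrl, -1.84 for Pdgfc, 0.69 for Pdgfa and 2.03 for Pdgfb, each with the sign it had in all libraries, and 0.12 for Pdgfd, while Pdgfra turned from -0.16 to 0.0056.

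Pdgfrb, the receptor that pericytes and activated fibroblasts depend on (chr18:61045127-61085067 of GRCm38.p6), was at 735, 670 and 660 CPM in negative libraries 1, 2 and 3. In positive libraries 1, 2 and 3 it was at 450, 400 and 254 CPM. Each negative library lay above every positive one, as was the case for 10.4% of all genes tested. The means were 688 ± 40.6 and 368 ± 102 CPM (SD, n = 3), and the fraction sorted as CD34 negative was the less variable. The log2 fold change was 0.94 ± 0.24 (SE), with a 95% interval of 0.38 to 1.5 (limma-voom, adjusted p = 0.147). With the tumor as a block it was 0.94 ± 0.16 with an adjusted p of 0.00714, and edgeR and DESeq2 with the block called it too, at 0.0429 and 1.43e-05. Within tumors 1, 2 and 3 the log2 difference was 0.71, 0.75 and 1.38.

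Pdgfra, the receptor at whose locus the GFP reporter sits (chr5:75151322-75198206), was at 468, 387 and 302 CPM in negative libraries 1, 2 and 3. The positive libraries 1, 2 and 3 held 506, 442 and 336 CPM. The groups overlapped, the level differed more between tumors than between fractions, and in each tumor the positive library was slightly higher. The means were 385 ± 83.1 and 428 ± 85.8 CPM, and the log2 fold change was -0.16 ± 0.24 (95% interval -0.70 to 0.37, adjusted p = 0.785 in limma-voom). With the block the interval was -0.42 to 0.12, so a difference within these bounds is not excluded. In the GENCODE annotation Pdgfra shares up to 341 exonic bases with an antisense gene, and without a stated strand setting such reads cannot be told apart.

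The balance of the receptors was read within each library, where library scaling cancels. Per kilobase of gene length, Pdgfrb was at 1.95, 2.16 and 2.72 times Pdgfra in negative libraries 1, 2 and 3. In positive libraries 1, 2 and 3 the ratio was 1.11, 1.13 and 0.943. The CD34 positive CAFs thus held both receptor transcripts at near equal levels, and in the CD34 negative CAFs Pdgfrb made up 66.2% to 73.1% of the pair. All cells carried the knock-in at Pdgfra and were sorted on its GFP. The effect of the knock-in on the Pdgfra level, and so on this ratio, was not measured, nor was the balance in other CAFs. On the log2 scale the ratio averaged 1.17 ± 0.246 and 0.0777 ± 0.141 (SD, n = 3), a difference of 1.10 or 2.14-fold. An exact two-sided permutation test gave p = 0.1, the smallest that 3 against 3 libraries allow. The difference was 0.82, 0.94 and 1.53 in tumors 1, 2 and 3, and the exact sign-flip test over tumors gave p = 0.25, again the smallest possible.

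Pdgfrl, the receptor-like gene without a kinase (chr8:40926233-40990782), was at 516, 340 and 329 CPM in negative libraries 1, 2 and 3. In positive libraries 1, 2 and 3 it was at 349, 153 and 39.5 CPM. The groups overlapped, since positive library 1 exceeded negative libraries 2 and 3, yet the negative library was higher within every tumor. The means were 395 ± 105 and 180 ± 156 CPM, and the log2 fold change was 1.63 ± 0.69 (95% interval 0.04 to 3.22, adjusted p = 0.340 in limma-voom). With the block in limma-voom it was 1.53 ± 0.36 with an adjusted p of 0.0309, whereas with the block edgeR gave 0.124 and DESeq2 0.127. Positive library 3 weighed most on the size of the difference. Within tumors 1, 2 and 3 the log2 difference was 0.57, 1.15 and 3.06, and without tumor 3 the blocked value was 0.85. Its adjusted p in limma-voom, 0.00610, was lower than with all 3 tumors. A fit on 2 tumors leans on variances shared over all genes. Without positive library 3 alone, and without a block, the log2 fold change was 0.70 (adjusted p = 0.609).

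**Figure D2:**
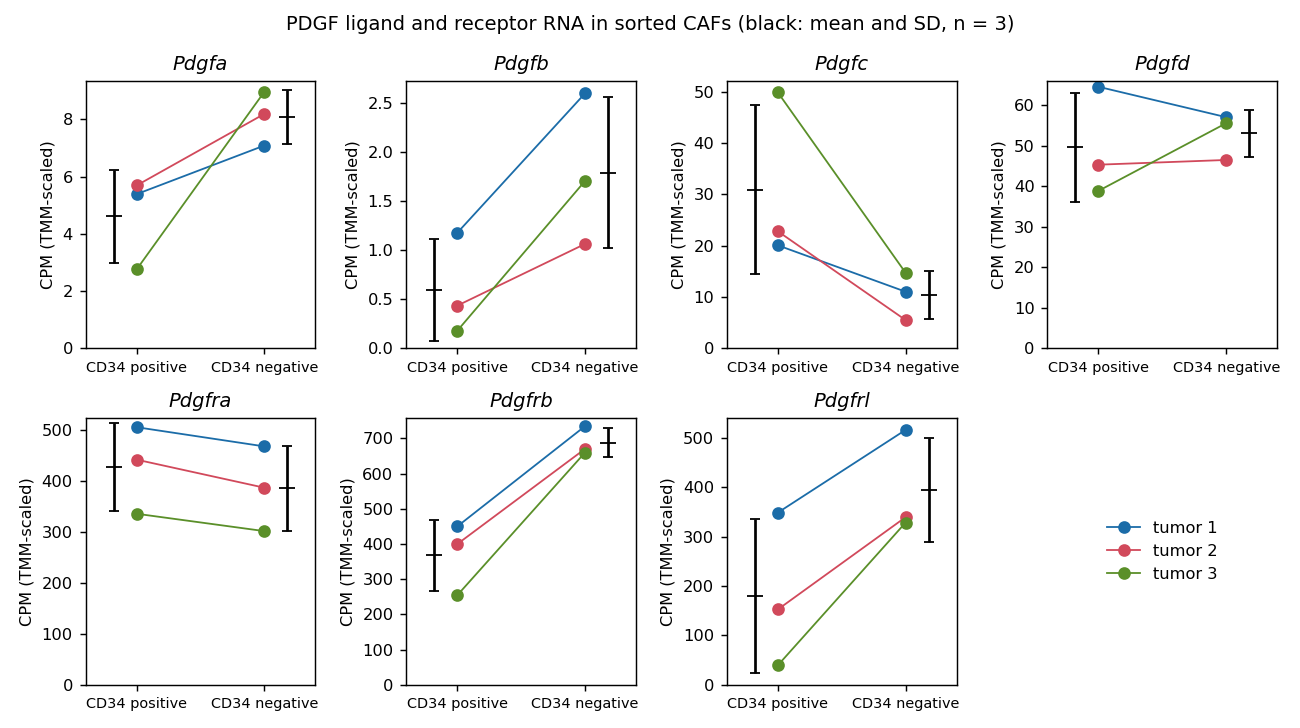
CPM of each PDGF gene in the 6 libraries, one panel per gene, with CD34 positive on the left and CD34 negative on the right, a line for each tumor, and the mean and SD of each group in black. From positive to negative, the lines of Pdgfrb and Pdgfrl go up in 3 of 3 tumors, those of Pdgfc go down, and those of Pdgfra lie nearly level.

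Among the ligands, Pdgfc differed most clearly. Pdgfc, a ligand of PDGFR-alpha homodimers that is secreted in latent form (chr3:81036416-81214040), was at 11, 5.47 and 14.7 CPM in negative libraries 1, 2 and 3. It was at 20.1, 22.8 and 49.9 CPM in positive libraries 1, 2 and 3. All negative libraries lay below all positive ones, as for 10% of all genes tested. The means were 10.4 ± 4.64 and 30.9 ± 16.5 CPM, and the log2 fold change was -1.58 ± 0.45 (95% interval -2.61 to -0.55, adjusted p = 0.176 in limma-voom). With the block it was -1.61 ± 0.25 (adjusted p = 0.00615), and edgeR and DESeq2 with the block gave adjusted p values of 0.0353 and 1.55e-05. The log2 difference was -0.87, -2.06 and -1.76 in tumors 1, 2 and 3. In blocked fits that left out a tumor the log2 fold change of Pdgfc was -1.88 to -1.43. Each of them called it, but with 2 tumors left they lean on variances shared over all genes. An antisense gene shares up to 147 exonic bases with Pdgfc.

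Pdgfa, the classical ligand of PDGFR-alpha (chr5:138976014-139000792), was at 7.09, 8.19 and 8.97 CPM in negative libraries 1, 2 and 3. Positive libraries 1, 2 and 3 held 5.38, 5.69 and 2.75 CPM. Its groups did not overlap, in the direction opposite to Pdgfc. The means were 8.08 ± 0.946 and 4.61 ± 1.62 CPM, but the log2 fold change of 0.73 ± 0.35 did not pass the test (adjusted p = 0.392 without and 0.236 with the block, limma-voom). Leaving out positive library 2 moved the unblocked value to 1.16, leaving out tumor 2 to 1.14 and leaving out tumor 3 to 0.42. An antisense gene shares up to 354 exonic bases with it.

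Pdgfb, a ligand of both receptors that endothelial cells and platelets are known to make (chr15:79995865-80024614), was near the lower end of detection. It was at 2.60, 1.06 and 1.71 CPM in negative libraries 1, 2 and 3 and at 1.18, 0.433 and 0.176 CPM in positive libraries 1, 2 and 3. The groups overlapped at positive library 1 and negative library 2. These levels rest on between 5 and 146 counts per library, and the 5 counts of positive library 3 have an exact Poisson 95% interval of 1.62 to 11.7 counts, which covers counting error only. The log2 fold change was 2.04 ± 0.88 (adjusted p = 0.344 in limma-voom), and no fit called it.

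Pdgfd, a ligand of PDGFR-beta that is also secreted in latent form (chr9:6168363-6534284), was at 57.0, 46.5 and 55.6 CPM in negative libraries 1, 2 and 3. Positive libraries 1, 2 and 3 held 64.6, 45.3 and 38.8 CPM. The groups overlapped and the tumors differed in sign, at -0.18, 0.04 and 0.52 on the log2 scale. The means were 53.0 ± 5.72 and 49.6 ± 13.4 CPM, with a log2 fold change of 0.17 ± 0.21 (95% interval -0.32 to 0.65, adjusted p = 0.761 in limma-voom).

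Sequence before the start site is shown for Pdgfc, the ligand called with the block, and for Pdgfd and Pdgfra, which were not called. RefSeq promoter windows were searched for 4 of the 7 genes (GRCm38.p6). The receptor Pdgfrb, called with the block, was left out of the search, as were Pdgfb and Pdgfrl. This does not mean that these genes lack a window. The sequences shown are on the plus strand and are written 5′ to 3′ in lower case, with motif matches in capitals. The 250-base stretches were searched on both strands for the CArG box (bound by serum response factor), for TATAAA as a TATA box, for GGGCGG as a GC box, and for TGANTCA as an AP-1 motif, all chosen after the sequences had been seen.
Pdgfc, chr3:81036166-81036415: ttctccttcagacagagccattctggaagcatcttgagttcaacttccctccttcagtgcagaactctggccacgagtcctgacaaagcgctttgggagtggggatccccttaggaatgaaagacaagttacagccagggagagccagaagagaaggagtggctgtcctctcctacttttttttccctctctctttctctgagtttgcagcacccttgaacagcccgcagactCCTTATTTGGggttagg
Pdgfra, chr5:75152001-75152250: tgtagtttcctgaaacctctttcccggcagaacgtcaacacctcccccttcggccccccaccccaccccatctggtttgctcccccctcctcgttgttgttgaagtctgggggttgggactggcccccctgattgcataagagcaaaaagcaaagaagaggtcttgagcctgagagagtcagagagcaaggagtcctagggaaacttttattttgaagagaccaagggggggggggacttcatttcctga
Pdgfd, chr9:6168236-6168362: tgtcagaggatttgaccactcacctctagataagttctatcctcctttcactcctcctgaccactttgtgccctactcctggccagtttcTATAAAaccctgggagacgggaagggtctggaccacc
The capitals in Pdgfc mark a CArG box 8 to 17 bases before the start, a motif that 1.47% of 32851 promoter stretches of 250 bases held. The capitals in Pdgfd mark TATAAA, 32 to 37 bases before the RefSeq gene start, found in 12.4% of those stretches, and the Pdgfd sequence is shown only up to that start. The Pdgfra stretch, which lies inside the RefSeq gene span, held none of the 4 motifs. GC content was 50.8% in the Pdgfc and 54.4% in the Pdgfra stretch. A match is a description of letters and was not linked to the measured levels.

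Compared per kilobase of gene length (RPKM, mean over the 6 libraries), Pdgfrl stood highest at 186, with a range of 25.6 to 334. Pdgfrb followed at 97.6 (47.0 to 136) and Pdgfra at 60.4 (44.8 to 75.1). The receptor-family genes changed places in positive library 3, where the order was Pdgfra, Pdgfrb, Pdgfrl, so neither pair of neighbours among them differed beyond its spread. Pdgfd was the most abundant ligand at 28.6 RPKM (21.6 to 36.0), below Pdgfra and above every other ligand in 6 of 6 libraries. Pdgfa at 6.23 (2.70 to 8.80) and Pdgfc at 5.88 (1.56 to 14.2) overlapped, and Pdgfb was lowest at 0.405 (0.0599 to 0.883). Pdgfa lay above Pdgfc in the 3 negative libraries and below it in the 3 positive ones.

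**Figure D3:**
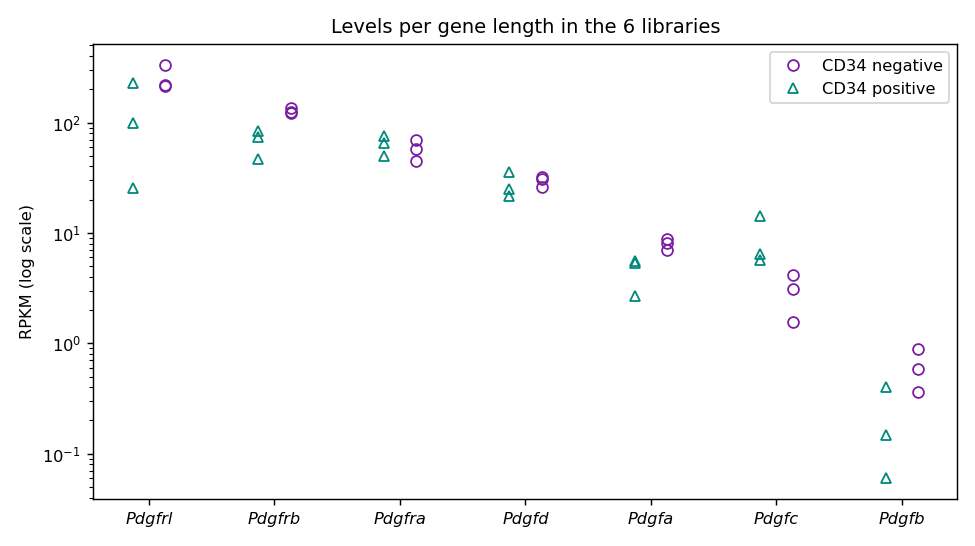
RPKM (log axis) of the 7 PDGF genes in each library, ordered by their mean, with circles for CD34 negative and triangles for CD34 positive libraries. Pdgfrl, Pdgfrb and Pdgfra overlap at the top, Pdgfd lies between the receptors and the other ligands, and Pdgfb is lowest in every library.

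The make-up of the ligand pool was described as shares of the summed reads per kilobase of the 4 ligands, a measure chosen after the values had been seen and given without a test. Pdgfd took 69.5% to 74.3% of it in the negative and 56.1% to 75.9% in the positive libraries. Pdgfc took 7.33%, 4.34% and 9.40% in negative libraries 1, 2 and 3, and 12.1%, 17.3% and 36.8% in positive libraries 1, 2 and 3. Pdgfa took 16.3% to 22.4% in the negative and 7.0% to 14.9% in the positive libraries, so the shares of Pdgfa and Pdgfc leaned opposite ways while Pdgfd stayed the main ligand transcript throughout. Shares of transcripts say nothing of secreted or activated protein.

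**Figure D4:**
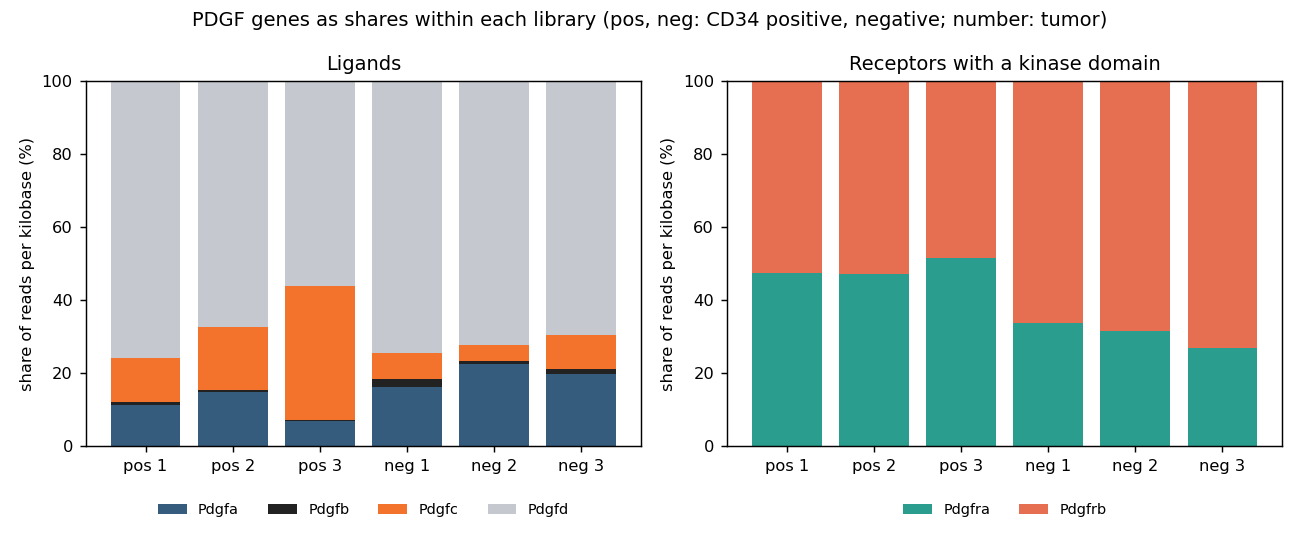
Stacked shares (percent of reads per kilobase) of the 4 ligands and of the receptors Pdgfra and Pdgfrb in each library. Pdgfd is the widest ligand band in all 6 libraries, Pdgfc widens in the CD34 positive libraries to 36.8% in tumor 3, and Pdgfrb exceeds Pdgfra in all but positive library 3.

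Markers of other cell types that carry PDGF genes were read beside these results, as summed CPM by library total. Mural markers (10 genes of pericytes and vascular smooth muscle, cells known for Pdgfrb) summed to 210 to 264 CPM in the negative and 91.0 to 199 CPM in the positive libraries. The sums were higher in the negative ones without overlap, as Pdgfrb was. Cspg4, the most abundant of them, weighed most on the sum, at 84.5 to 129 CPM in the negative and 12.9 to 44.0 CPM in the positive libraries. Abcc9 ran the other way, at 7.59 to 28.3 CPM in the negative and 15.3 to 87.8 CPM in the positive libraries. Of the 9 mural genes tested, 6 had a log2 fold change above 0 and 3 below 0, so the sum does not stand for the whole list. With the block, 4 of the 9 tested were called higher (Cspg4, Notch3, Mcam and Des) and 2 lower (Kcnj8 and Abcc9). That is 66.7% against 8.57% of all genes tested. Rgs5, a defining pericyte gene, was at 3.72 to 10.7 CPM in the negative and 0.247 to 1.18 CPM in the positive libraries and was not called. Their part in the Pdgfrb and Pdgfrl differences was not tested. Endothelial markers (10 genes) summed to 17.8 to 39.1 CPM in the negative and 58.5 to 130 CPM in the positive libraries. Tek, the most abundant, ran opposite to Pdgfb at 5.45 to 13.4 CPM in the negative and 48.8 to 116 CPM in the positive libraries and was called lower with the block. Of the 9 endothelial genes tested, 6 had a log2 fold change above 0, the sign of Pdgfb, none of them called, and the median was 1.61. The endothelial junction gene Cdh5 ran from 0.220 to 4.18 CPM in the negative and from 0 to 1.61 CPM in the positive libraries, beside a Pdgfb level of at most 2.60 CPM. The part of endothelial RNA in the Pdgfb values was not tested. The platelet genes Pf4 and Ppbp were at or near 0, at most 0.609 and 0.164 CPM, while the 6 platelet markers together summed to 12.7 to 18.1 CPM in the negative and 16.8 to 26.9 CPM in the positive libraries. Epithelial markers (10 genes) summed to 70.0 to 187 CPM in the negative and 25.0 to 165 CPM in the positive libraries, and all 10 had a log2 fold change above 0 with none called. Immune markers (10 genes) summed to 15.0 to 19.2 and 7.33 to 21.4 CPM, and Schwann cell markers (6 genes, with Foxd3 at 0 in every library) to 11.4 to 21.4 and 11.4 to 22.7 CPM. The part of these lists in the PDGF results was not tested. The 9 fibroblast markers summed to 72680 to 90119 and 78219 to 98542 CPM. With the block, the proteoglycan genes Dcn (log2 fold change -1.18) and Lum (-0.79) were called lower and the matrix gene Fbln1 (0.79) higher in CD34 negative CAFs. The other 6 were not called, so 33.3% were called against 8.57% of all genes tested.

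The rest of the pathway was read from 6 lists of 94 genes, of which 93 were tested. Without the block 1 of the 93 was called, Pcsk6, and 25 had an unadjusted p under 0.05. With the block 22 were called, 13 higher and 9 lower, which is 23.7% against 8.57% of all genes tested. Of these 22, edgeR with the block called 12 and DESeq2 with the block all 22. Over all genes tested, edgeR with the block called 262 higher and 313 lower. DESeq2 with the block called 839 higher and 894 lower. With the tumor as a random effect limma-voom called 13, beside 351 genes higher and 352 lower over all genes tested. Of the 22, 14 were called in every one of the blocked fits that left out a tumor, but those fits lean on variances shared over all genes.

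Of the 11 genes for ligand processing (proteases that free PDGF ligands, with the plasminogen activator system), 2 were called higher and 1 lower with the block. That is 27.3% against 8.57% of all genes tested, and the median log2 fold change was 0.19. Pcsk6, a proprotein convertase able to cut growth factor precursors, was at 18, 21.7 and 15.9 CPM in negative libraries 1, 2 and 3 and at 109, 103 and 124 CPM in positive libraries 1, 2 and 3. The groups lay far apart, and the log2 fold change was -2.60 (adjusted p = 0.00853 without and 0.000159 with the block). Without the block and without negative library 3 or positive library 2 it missed the threshold, at adjusted p values of 0.0669 and 0.0524, and likewise without tumor 2 (0.154) or tumor 3 (0.194). Serpine2, an inhibitor of plasminogen activators and thrombin, was at 1355 to 1640 CPM in the negative and 252 to 805 CPM in the positive libraries (log2 fold change 1.52, adjusted p = 0.183 without and 0.00674 with the block), and without positive library 3 the value without the block was 0.95. Furin, the proprotein convertase that processes PDGF-A and PDGF-B precursors, had a log2 fold change of 0.58 (adjusted p = 0.271 without and 0.0488 with the block), and that call was lost without tumor 1 (0.46) or tumor 2 (0.63). The activators of the latent ligands were not called: the log2 fold change was -0.19 for Plat, which encodes the tissue plasminogen activator that cuts PDGF-C, and -0.02 for Plau, which encodes the urokinase that cuts PDGF-D.

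In the list of 7 genes for co-receptors and binding proteins, 3 were called higher with the block and none lower, with a median log2 fold change of 0.55. That is 42.9% against 8.57% of all genes tested. Among the 3 is Gas6, which is known as a secreted ligand of the TAM receptors and not as a PDGF-binding protein, so the calls among the other 6 genes are 2. Gas6 was at 1446 to 1552 CPM in the negative and 421 to 773 CPM in the positive libraries (log2 fold change 1.43, adjusted p = 0.0735 without and 0.00164 with the block). Lrp1, an endocytic receptor that associates with PDGFR-beta, had a log2 fold change of 0.76 (adjusted p = 0.184 without and 0.0107 with the block). Hspg2, which encodes the heparan sulfate proteoglycan perlecan, had 0.55 (adjusted p = 0.262 without and 0.0453 with the block), and its call was lost without tumor 1 (0.40) or tumor 2 (0.64). Of 35 adaptors, kinases and GTPases, 1 was called higher and 1 lower with the block, which is 5.71% against 8.57% of all genes tested, with a median log2 fold change of 0.10. Slc9a3r2, a PDZ scaffold protein, had a log2 fold change of 1.35 (adjusted p = 0.203 without and 0.00540 with the block, and 0.87 without the block and positive library 3) and the Src-family kinase Fyn -0.96 (0.0858 and 0.00507).

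Of 15 negative regulators, 3 were called higher and 3 lower with the block, with a median log2 fold change of -0.06. That is 40% against 8.57% of all genes tested. The Sprouty genes, feedback inhibitors of receptor tyrosine kinase signalling, went in different directions. Spry2 was lower in CD34 negative CAFs (log2 fold change -1.13, adjusted p = 0.133 without and 0.00444 with the block), whereas Spry1 (1.05, 0.159 and 0.00681) and Spry4 (0.86, 0.437 and 0.0238) were higher. The tyrosine phosphatase genes Ptprj (-0.79, 0.337 and 0.0303) and Ptpn2 (-0.57, 0.231 and 0.0336) were lower. Calls were lost without tumor 2 for Ptprj (blocked log2 fold change -0.56), Spry4 (0.61) and Ptpn2 (-0.51), and for Spry4 (0.78) and Ptpn2 (-0.61) also without tumor 1. Without the block and without negative library 1, Spry4 was at 0.41.

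Of 20 genes with a fast transcript response to PDGF or serum, 4 were called higher and 3 lower with the block, with a median log2 fold change of 0.16. That is 35% against 8.57% of all genes tested. Dusp4, a phosphatase of MAP kinases, was at 35.2 to 57.9 CPM in the negative and 5.93 to 22.6 CPM in the positive libraries (log2 fold change 1.71, adjusted p = 0.144 without and 0.00360 with the block). Dusp6, which acts on ERK, had a log2 fold change of 0.91 (0.109 and 0.0154), and the immediate early gene Ier2 0.48 (0.264 and 0.0459), a call lost without tumor 1 (0.43) or tumor 2 (0.44). The lower genes were the growth regulator Myc (-0.95, 0.0906 and 0.00380) and the chemokine genes Cxcl1 (-1.45, 0.108 and 0.00103) and Ccl2 (-0.90, 0.387 and 0.00302, and -0.60 without the block and positive library 2). The list thus moved in both directions, and Fos ranged from 3838 to 5590 CPM in the negative and from 3750 to 5251 CPM in the positive libraries. Among other class III receptor tyrosine kinases and their ligands, 5 of 6 genes were tested. With the block 1 was called, which is 20% against 8.57% of all genes tested. It was Kitl, the ligand of Kit, called lower (-0.93, 0.326 and 0.0243). edgeR with the block did not call it (0.0791), and without negative library 3 the value without the block was -0.52.

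**Figure D5:**
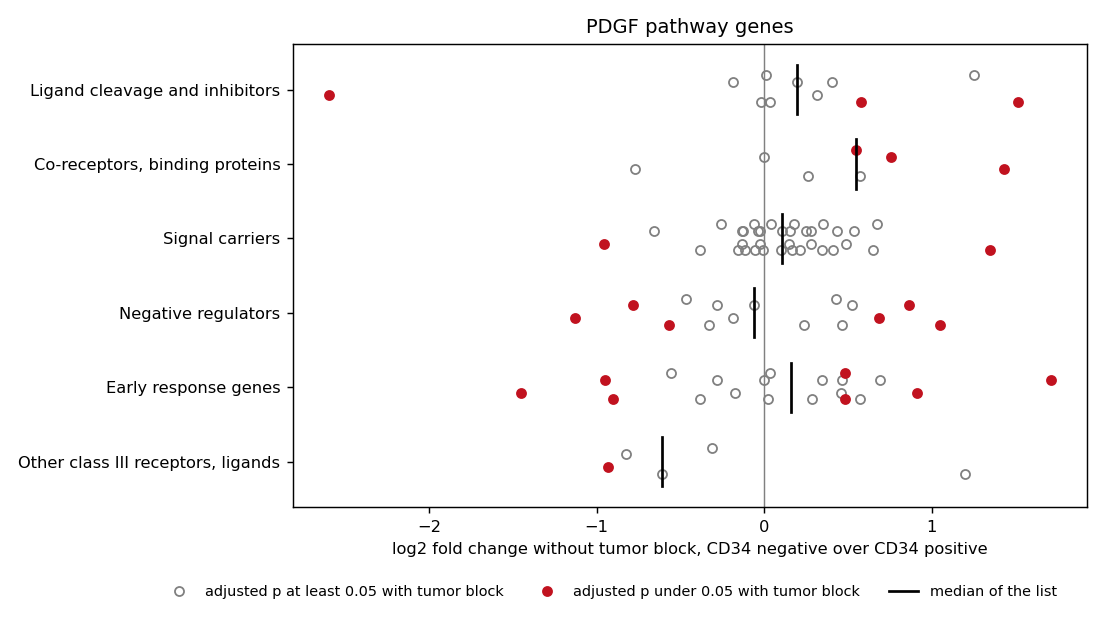
Log2 fold change (CD34 negative over CD34 positive, limma-voom without the block) of each tested gene of the 6 pathway lists, with filled red points for genes called with the tumor as a block and a bar at the median of each list. Points lie on both sides of 0 in every list, and the lowest is Pcsk6 at -2.60.

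Patterns over the libraries were described by Pearson correlations of log2 CPM, which rest on 6 libraries that share tumors and depth and carry no test. Pdgfrb went with Pdgfa (r = 0.942), Pdgfb (0.932) and Pdgfrl (0.925) and against Pdgfc (-0.894). Pdgfra correlated with the other PDGF genes at -0.147 to 0.472 and so followed none of them closely. Among the 8944 genes whose log2 CPM averaged 3 or more, the closest to Pdgfrb were Man2b2 (0.999), Spon1 (0.996) and Jup (0.995), and the closest to Pdgfrl were Scube2 (0.996), Col11a1 (0.994) and Cilp (0.989). The closest to Pdgfc were Flrt2 (0.995), 6430548M08Rik (0.994) and Tgfbr3 (0.991), and the closest to Pdgfra were Cd109 (0.990), Septin11 (0.985) and Dguok (0.984).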

How the data were processed

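RNA from FACS-sorted cells was sequenced with the TruSeq RNA v2 protocol on an Illumina NextSeq, from at least 10 ng of total RNA. The authors aligned reads to GRCm38 (mm10) and made counts for NCBI genes in Rsubread (the submitters' processing notes name featureCounts), and deposited raw counts, not normalized and not pooled. Strand and multi-mapping settings were not given in the sources used here, which affects genes with overlapping or antisense partners. Groups and tumors came from the sample titles, which say CD34 negative and positive where the series record speaks of low and high CD34. Libraries within a group were not copies of each other, since chi-square per gene between replicates was 133 to 239.

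As in the study's methods, genes were filtered with filterByExpr (minimum count 10), scaled by TMM and compared with limma-voom (R 4.3.3, edgeR 4.0.16, limma 3.58.1). Unlike there, genes without annotation were kept, and removing those without a symbol was run as an alternative. The methods state no tumor term, and the main fit had none. That fit called 3 genes higher in CD34 negative CAFs, and with the tumor as a block 642 were called higher. The paper's set of genes raised both in CD34 negative CAFs and in tumors over hyperplastic glands is far larger than 3. The calls of the main fit are thus not those of the study. Whether the study entered the tumor is not known from its methods. Adjustment was Benjamini-Hochberg over 14855 genes, with a two-sided threshold of 0.05. Positive log2 fold changes mean higher in CD34 negative CAFs. Both fractions came from the same tumor, and deviations from group means correlated within tumors at 0.373, 0.350 and 0.219, so the tumor was also fitted as a block. Log2 differences within a tumor are differences of voom log2 CPM. RPKM used the gene lengths of the count table. Scripts were tested on simulated data.

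The PDGF genes, pathway lists and marker lists were chosen with earlier results of these data known, so their counts are descriptions. Named pathway genes were those with an adjusted p under 0.05 in either fit, at most 6 per list by absolute log2 fold change. Up to 3 defining genes per marker list and the 3 genes most correlated with Pdgfra and each called gene were also named. Plat, Plau, Fos and the called mural genes were named after their values were seen. A gene counted in the list of negative regulators is not reported here. Alternatives covered normalization, the filter, genes without a symbol (1310), edgeR, DESeq2 1.42.0, limma-trend, quality weights, the block, thinning to 16238059 counts, each library and each tumor. Positions are those of RefSeq on GRCm38.p6, and exon overlaps those of GENCODE M21.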

Additional observations from a re-analysis of the deposited data

How the results depend on the processing

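Other normalizations, filters, symbol-only genes, edgeR without the block, limma-trend, quality weights, thinning and leaving out any library or tumor without the block called 0 PDGF genes. DESeq2 without and with the block, edgeR with the block and the tumor as a random effect each called 1 higher (Pdgfrb) and 1 lower (Pdgfc). limma-voom with the tumor as a replicate block called 2 higher and 1 lower, as did each blocked fit without a tumor (2 to 2 higher and 1 to 1 lower). Fits on 2 tumors lean on variances shared over all genes. Over all genes, the blocked fit without tumor 3 called 883 higher and 1136 lower, against 642 and 631 with all tumors. The blocked fits without tumor 1 (612 and 522) and without tumor 2 (424 and 427) called fewer. With the block, pathway genes called higher went from 0 to 13 and those called lower from 1 to 9. The block changed no other call among the PDGF genes. The Pdgfrb to Pdgfra log2 ratio difference was 1.10 with tumors paired and 0.88 to 1.23 when a library or tumor was left out. Pdgfd (0.17 with all libraries) ranged from -0.060 to 0.31, and Pdgfra (-0.16) from -0.33 to 0.0056, when a library or tumor was left out: Pdgfd turned to -0.060 without tumor 3 and to -0.074 without tumor 3 with the block, and Pdgfra to 0.0056 without negative library 3. The cause was not tested. With 3 libraries per group the intervals stay wide. Without the block, limma p-values rest on the spread of libraries within a group. With the block they rest on the spread of the differences within tumors. In both fits that spread is moderated by the variances of all genes.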
